A study of Rattus norvegicus with 3 samples.

Results

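The genes described here belong to families named for the cell division cycle and the copying of DNA: cyclins, cyclin-dependent kinases (CDKs) with their activators and inhibitors, genes named Cdc (cell division cycle), Aurora and Polo kinases, E2F factors, DNA polymerase subunits, minichromosome maintenance (Mcm) genes, and Pcna, Top2a, Mki67, Spag5, Smc1a and Mre11. They were chosen by the gene symbol that the array files give, and 35 of the 5690 probes on the array were taken, each printed on 2 spots. Another 12 probes carry an older symbol in the files, and their current RefSeq symbol belongs to the same families. Among these are Mre11 (Mre11a in the files), Aurkb (Stk12), Aurka (Stk6), Smc1a (Smc1l1) and Mcm6 (Mcmd6), and they are counted apart from the 35. Of the 35, 3 carry an outdated symbol that no longer names a cell cycle gene: the current names of Cdk105, Cdk107 and Cdc10 are Nsa2, Slfn4 and Septin7. Some others, such as Cdc42, Cdc42bpb and Cdc5l, keep a Cdc name but have other roles, given below. Mki67 was not analysed here.

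Liver RNA of male rats was measured on 3 spotted arrays read in 2 colours. The strains were the spontaneously hypertensive rat (SHR), which develops high blood pressure with age, and its normotensive relative Wistar Kyoto (WKY). One array set SHR of 1 month against pooled WKY of 1 month, one set SHR of 3 months against pooled WKY of 3 months, and one set SHR of 3 months against SHR of 1 month. Each comparison rests on 1 array with no dye swap, how many animals gave each RNA is not stated in the labels, and no difference below has a replicate check.

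Cyclins bind CDKs and switch them on in turn, and each cyclin and CDK pair carries the cell through one step of the cycle. E2F factors turn on the genes of DNA synthesis, Mcm proteins unwind DNA ahead of the polymerases, and Aurora and Polo kinases and Cdc20 run mitosis. In the growing liver of young rats hepatocytes still divide, while in the adult most rest and many hold several sets of chromosomes. In whole liver, fewer dividing cells and less RNA per dividing cell cannot be told apart.

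All values are normalized log2 ratios, second channel over first, relative to the trend of probes of like brightness on the array. A value of 0 means no difference from that trend. It is not the array's median, which is the 0 only under median centring, an alternative setting given below. In both strain comparisons a positive value means that SHR was the higher. The direction of the third array, called the SHR age array, is unsettled. Its file headers give the second channel to SHR of 3 months, and positive values are read here as higher at 3 months. By the labels, Alexa647 marked SHR in both strain comparisons but the younger SHR in this one. If the second channel held SHR of 1 month, every sign on the SHR age array would turn. The study's own title of that array names SHR of 1 month first. Both spots of a probe on 1 array show printing and reading error only. Their pooled SD was 0.0563 and 0.0456 for the strain comparisons at 1 and 3 months and 0.0524 for the SHR age array.

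The arrays measured most of these genes above empty spots. Of the 35 probes, 34, 32 and 34 exceeded the 95th percentile of 512 empty spots in both channels on the 1-month strain, 3-month strain and SHR age array, against 97.8%, 95.4% and 97.6% of all probes. Median raw intensity in the second and first channel was 2270 and 3405, 2162 and 3460, and 1448 and 2405. The tissue label was checked with hepatocyte markers, and all 14 of 15 measured were above the empty spots on each array. All 8 neuron markers measured were above them too, so detection on this array did not separate cell types.

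Most of the cell cycle and replication genes differed little in any comparison, and most that stood apart did so on the SHR age array. With age in SHR, 7 of the 35 (20.0%) were at least 1.5-fold lower at 3 months than at 1 month and 0 were higher. Over all probes 5.42% were at least 1.5-fold lower and 2.06% at least 1.5-fold higher. The 7 were Cdk5, Spag5, Cdc20, Nsa2, Cdk4, Cdc42bpb and Ccnd2, and the first 3 were 2-fold lower or more, against 0.915% of all probes. The median of the 35 was -0.052 and that of all probes -0.009, so the body of the group lay near the middle of all probes. Without the 7 members set aside as not cell cycle genes by function, Nsa2 and Cdc42bpb among them, 5 of 28 were at least 1.5-fold lower. Cdk5, an atypical CDK, was kept among the 28. Without probes of mean log2 intensity under 9, 5 of 25 members were, beside 4.3% of all such probes. With the sign of this array turned, the same values give 7 higher, 0 lower and a median of 0.052. A second reading of age in SHR, from the strain arrays and given last, had 3 of the 35 lower and 3 higher. The dim Cdc20 was among those higher.

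**Figure D1:**
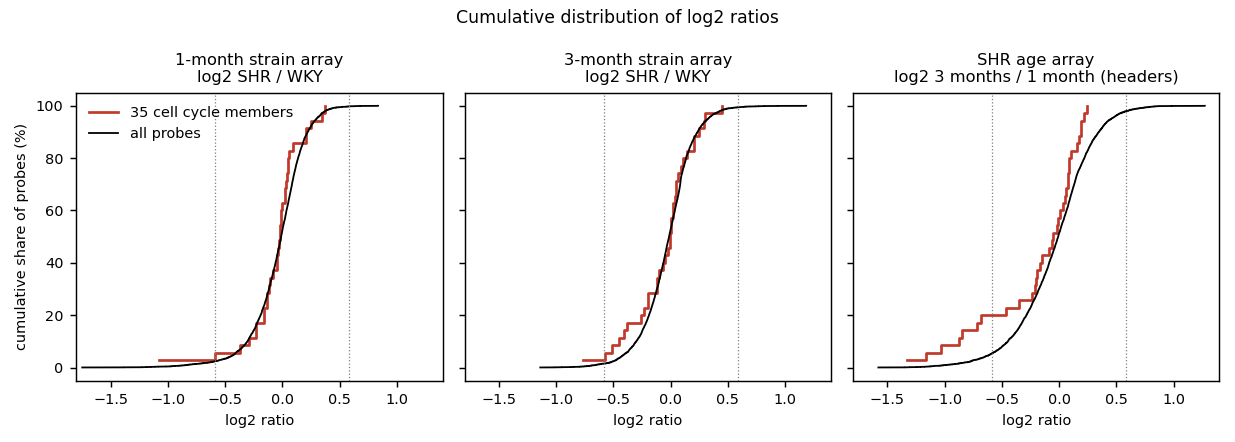
Cumulative share of probes (y axis, percent) by log2 ratio (x axis) on the 3 arrays, for the 35 members (red) and all probes (black), with dotted lines at 1.5-fold. The curves lie close together on both strain arrays, and on the SHR age array the lowest 7 members (20.0%) sit left of the lower line, where 5.42% of all probes do.

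Between the strains fewer members passed 1.5-fold. At 1 month 2 of the 35, Cdc20 and Ccnd2, were at least 1.5-fold lower in SHR, beside 2.41% of all probes, and 0 were higher, beside 0.194%. At 3 months 1 of the 35, Spag5, was at least 1.5-fold lower in SHR, beside 1.49% of all probes, and 0 were higher, beside 0.584%. That count depended on the processing: it was 2 to 6 under 8 other settings, 6 with plain background subtraction, and with median centring 3 were higher. The medians of the 35 were -0.025 at 1 month and -0.007 at 3 months, and those of all probes were -0.011 and -0.014. Of the 35, 28 were under 1.5-fold on each of the 3 arrays, as were 9 of the 12 further probes. The strain ratio at 3 months minus that at 1 month had a median of 0.061 over the 35 and 0.008 over all probes. By that measure 1 member (Cdc20) was at least 1.5-fold up and 2 (Cdk4 and Spag5) at least 1.5-fold down, beside 1.7% and 1.12% of all probes. Both Cdk4 spots at 3 months lay in a patch of bright local background, taken up below.

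**Figure D2:**
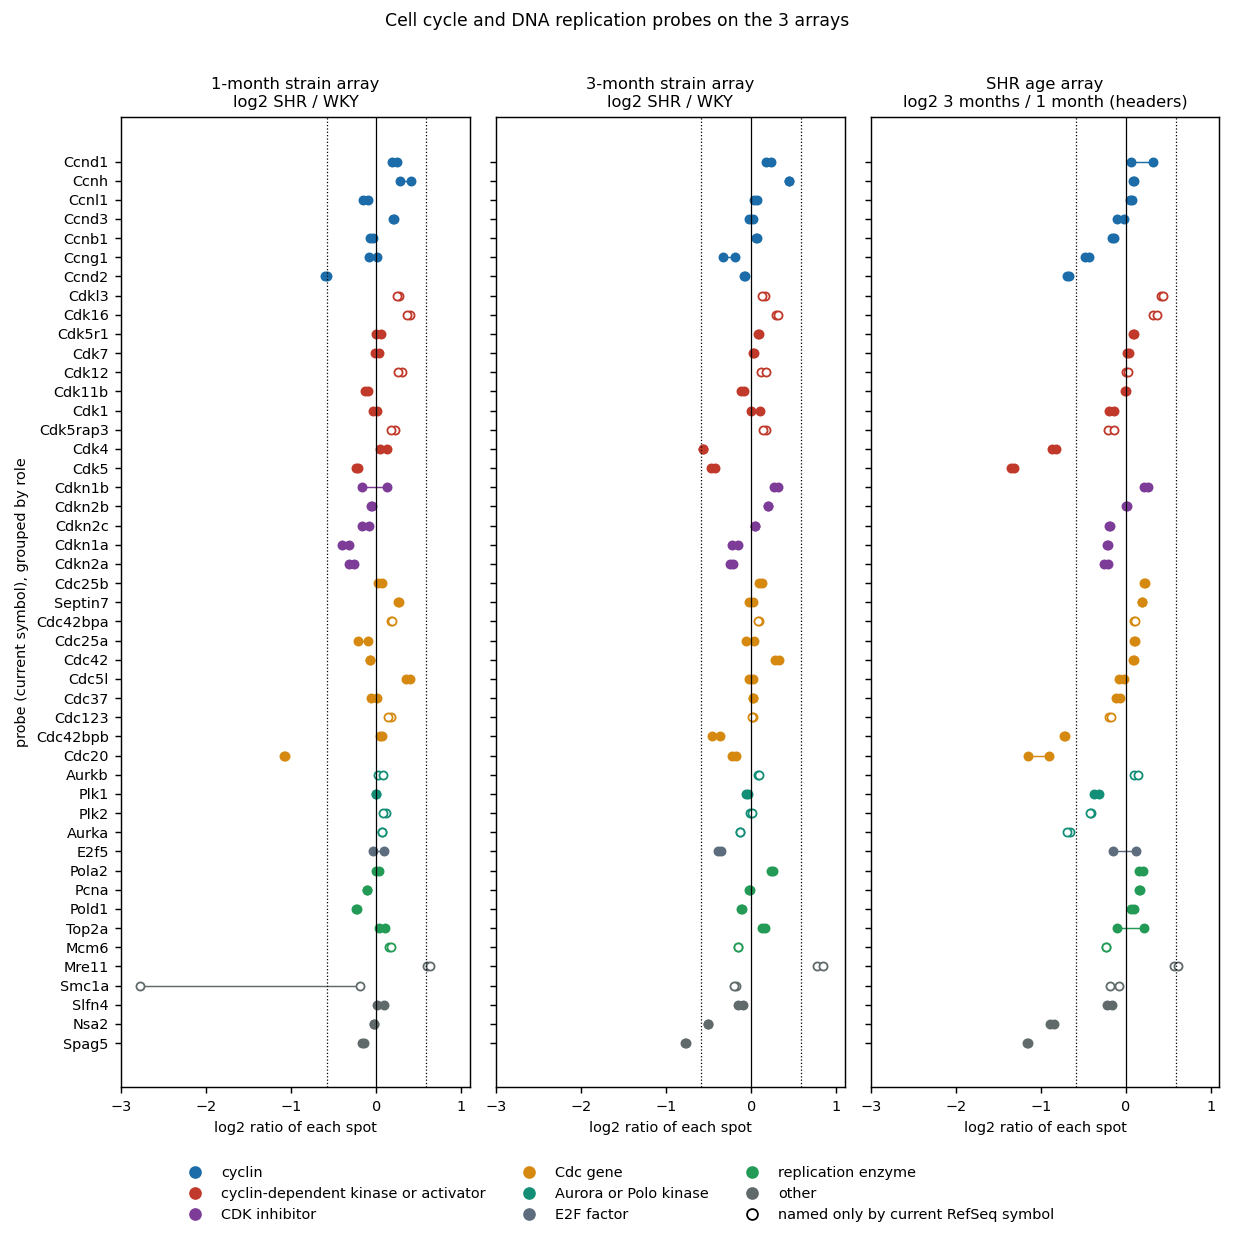
Log2 ratio of each of the 2 spots of the 47 probes (x axis) on the 3 arrays, by role; filled points are the 35 members and open points the 12 probes named by their current symbol, with dotted lines at 1.5-fold. Most points lie between the dotted lines, Cdk5, Spag5, Cdk4 and Nsa2 move left on the SHR age array, and the spots of Smc1a lie far apart on the 1-month strain array.

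Cdk5 is an atypical CDK that is activated by p35 rather than by a cyclin and is best known from neurons. Its raw intensity was 3338 in SHR of 3 months against 12145 in SHR of 1 month on the SHR age array. It was 8462 in SHR against 12377 in WKY at 1 month, and 7569 in SHR against 13729 in WKY at 3 months. The log2 ratio was -1.33 on the SHR age array (spots -1.35 and -1.32), a 2.52-fold difference and the lowest of the 35, and stayed between -1.35 and -1.18 over 12 other processing settings. The strain ratios were smaller, -0.23 at 1 month and -0.45 at 3 months, and under 1.5-fold in all settings run. At 3 months 1 of the 2 Cdk5 spots lay in a patch of bright local background. Cdk5r1, the gene of the p35 activator, read between 45 and 62 in both channels of the 3 arrays and was not well above background. The 8 neuron markers had a median of -0.04 on the SHR age array and 0 of them were at least 1.5-fold lower. Their summed raw intensity, not normalized, was 34089 at 3 months and 49456 at 1 month, where the median of all probes was 1448 and 2405. The part of neuron markers in the Cdk5 value was not tested.

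Spag5 (astrin) holds the mitotic spindle and the centrosomes together. Its raw intensity was 4679 in SHR of 3 months against 14398 in SHR of 1 month. It was 8532 in SHR against 11904 in WKY at 1 month, and 9039 in SHR against 19444 in WKY at 3 months. The log2 ratio was -1.16 with age (spots -1.16 and -1.15), -0.77 between strains at 3 months (spots -0.78 and -0.77) and -0.16 between strains at 1 month. Spag5 was the only one of the 35 at least 1.5-fold lower on both the SHR age and the 3-month strain array, as 0.833% of all probes were. With the age array read the other way, 0 of the 35 and 0 of all probes were lower on both. Spag5 was past that line in 12 of 12 other settings on both arrays, the turned sign aside.

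Cdk4, the partner of D-type cyclins in early G1, had a like order of values. Its raw intensity was 772 in SHR of 3 months against 2391 in SHR of 1 month. At 3 months it was 1269 in SHR against 3346 in WKY, and at 1 month 1957 in SHR against 2781 in WKY. The log2 ratios were -0.85 with age, -0.57 between strains at 3 months, just short of 1.5-fold, and 0.09 between strains at 1 month. Under other settings Cdk4 was past 1.5-fold at 3 months in 7 of 11 (-0.76 to -0.57) and with age in 12 of 12, and so joined Spag5 in most. Both of its spots on the 3-month strain array lay in a patch of bright local background, which 5 of the 35 members touched, so it has no value there without the patch. Nsa2, a factor of large ribosomal subunit assembly that the files call Cdk105, read -0.87, -0.51 and -0.03 in the same order. Cdc42bpb, a kinase that binds the small GTPase Cdc42 and shapes the cytoskeleton, read -0.72, -0.41 and 0.05. For these 3 genes, as for Spag5, SHR of 3 months was the lower in both comparisons that hold it, and the strains lay within 0.16 log2 units at 1 month. By the single channels of the strain arrays, given last, Spag5 differed from the other 3. At 3 months minus 1 month it read 0.06 in SHR and 0.68 in WKY. The SHR age array and the 3-month strain array share the SHR of 3 months by their headers, so their values are not independent.

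**Figure D3:**
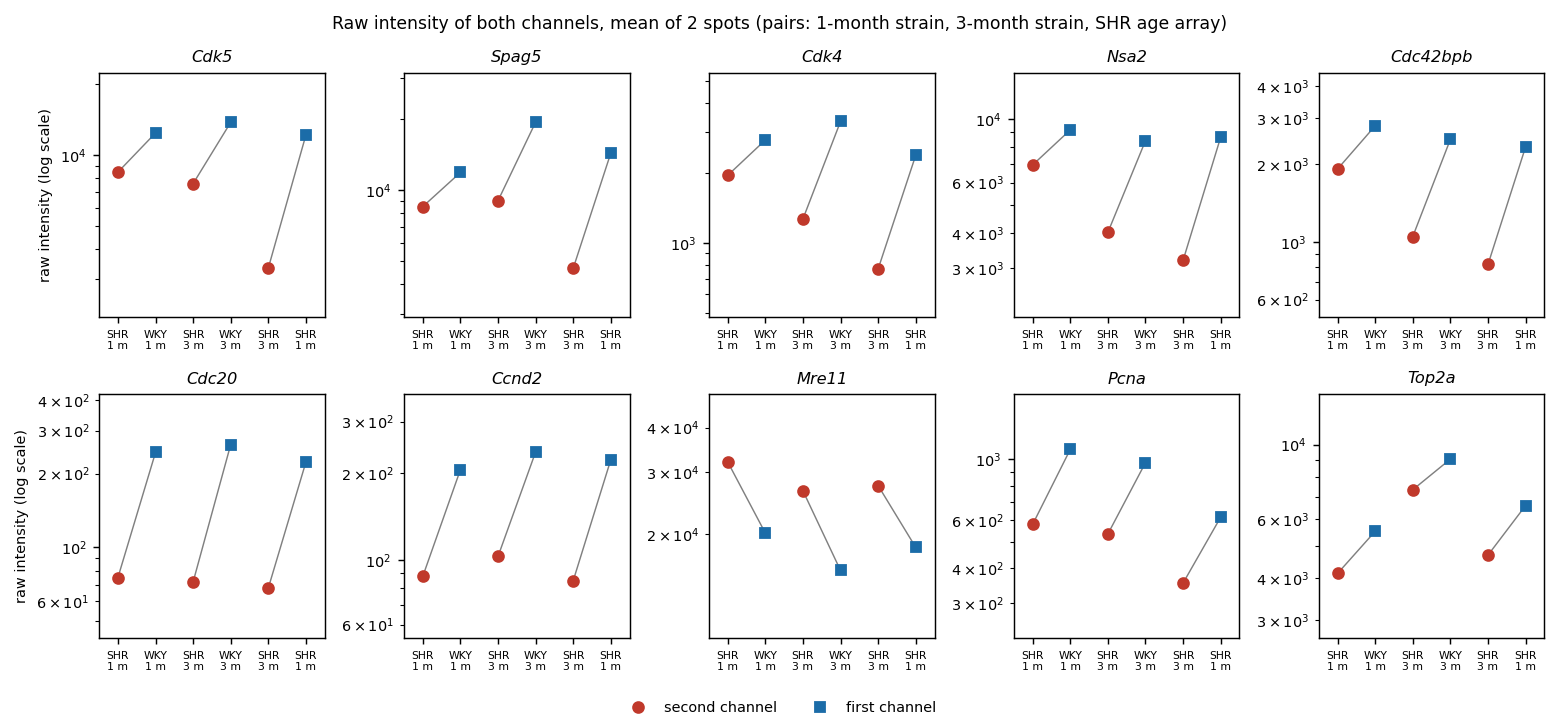
Raw intensity (y axis, log scale) of the second channel (red circles) and the first channel (blue squares) for 10 genes, as the mean of 2 spots, with the pairs of the 1-month strain, 3-month strain and SHR age array from left to right; names on the x axis follow the file headers. The second channel of Cdk5 and Spag5 is lowest on the SHR age array (3338 and 4679). So is the median of all probes in that channel, at 1448 against 2270 and 2162 on the 1-month and 3-month strain arrays. Cdc20, Ccnd2 and Mre11 show nearly the same pair of intensities on each array.

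Cdc20 activates the anaphase-promoting complex, which starts the separation of chromosomes. It was dim on each array. Its raw intensity was 68 in SHR of 3 months against 223 in SHR of 1 month, 75 in SHR against 244 in WKY at 1 month, and 72 in SHR against 263 in WKY at 3 months. The second channel thus read 68 to 75 and the first 223 to 263 whichever rats' RNA they held. The log2 ratios were -1.03 with age, -1.08 between strains at 1 month and -0.20 between strains at 3 months. The last value was set by that bright patch of 985 spots, which holds no spot of Cdc20 but enters the background model: without those spots it was -1.09. Cdc20 was also below the empty-spot level in the second channel there, so its change of 0.88 in the strain ratio rests on that patch.

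Ccnd2, a D-type cyclin that starts G1, was as dim and had the same layout. It read 85 in SHR of 3 months against 222 in SHR of 1 month, 88 in SHR against 205 in WKY at 1 month, and 103 in SHR against 236 in WKY at 3 months. The log2 ratios were -0.68 with age, -0.59 between strains at 1 month and -0.07 between strains at 3 months, or -0.50 without the bright patch. Ccnd2 and Cdc20 were the 2 members at least 1.5-fold lower on both the SHR age and the 1-month strain array, as 1.51% of all probes were. With the age array read the other way, 0 of the 35 and 0.0354% of all probes were lower on both. With no dye swap, channel and RNA cannot be told apart for these genes.

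Letters known from promoters of cell cycle genes were searched in RefSeq promoters of 300 bases around the gene start (build GRCr8), on both strands, for 32 of the 35 members that matched. The searched letters were the CHR elements TTTGAA and TTCGAA, the CCAAT box, and the E2F-type sites TTTGGCGC, TTTCCCGC, TTTGGCGG and TTTCCCGG, and the CHR and CCAAT letters do not overlap one another in the promoters shown. A CHR element was in 9 of 32 (28.1%) against 19.7% of all 33469 promoters, a CCAAT box in 18 of 32 (56.2%) against 37.5%, and an E2F-type site in 3 of 32 (9.38%) against 3.37%. These shares are over unlike sets. Members were searched in a single promoter per gene, while the 33469 are every promoter listed, with genes not on the array. The promoters of the 3 members 2-fold lower or more with age are shown because they differ in these letters, with matches in capitals (ATTGG and TTCAAA are the boxes read on the other strand).
Cdc20 promoter, chr5:137255750-137256049, minus strand: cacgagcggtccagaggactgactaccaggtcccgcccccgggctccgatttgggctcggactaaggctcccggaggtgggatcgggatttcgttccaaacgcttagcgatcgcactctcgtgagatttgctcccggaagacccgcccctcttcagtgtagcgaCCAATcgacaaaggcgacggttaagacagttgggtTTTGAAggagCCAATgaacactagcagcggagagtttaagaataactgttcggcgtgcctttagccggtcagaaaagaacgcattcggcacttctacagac
Spag5 promoter, chr10:63696586-63696885, plus strand: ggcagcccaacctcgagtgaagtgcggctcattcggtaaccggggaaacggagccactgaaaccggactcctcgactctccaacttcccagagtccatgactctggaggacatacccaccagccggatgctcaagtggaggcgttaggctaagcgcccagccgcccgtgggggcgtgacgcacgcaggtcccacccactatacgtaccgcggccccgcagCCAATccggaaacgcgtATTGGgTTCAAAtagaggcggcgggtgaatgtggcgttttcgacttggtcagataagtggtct
Cdk5 promoter, chr4:11646874-11647173, plus strand: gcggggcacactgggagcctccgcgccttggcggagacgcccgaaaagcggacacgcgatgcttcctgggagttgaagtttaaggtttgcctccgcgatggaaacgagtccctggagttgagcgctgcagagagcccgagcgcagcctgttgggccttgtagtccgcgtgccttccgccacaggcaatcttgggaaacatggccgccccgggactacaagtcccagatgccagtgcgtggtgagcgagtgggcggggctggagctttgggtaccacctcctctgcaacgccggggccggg
Cdc20 holds a CHR element that begins 51 bases before the gene start, with CCAAT boxes 86 and 41 bases before it. Spag5 holds a CHR element 7 bases before the start and CCAAT boxes 30 and 13 bases before it. None of the searched letters is in the Cdk5 window. Cdk1, Plk1 and Top2a hold CHR and CCAAT letters as well, and were under 1.5-fold on each array. The arrays did not measure binding at any of these letters.

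The other cyclins were under 1.5-fold, Ccng1 and Ccnh not in every setting. Ccnd1, the D-type cyclin that answers to growth factors, read 853 in SHR of 3 months against 1304 in SHR of 1 month, and its log2 ratios were 0.19 with age, 0.21 between strains at 1 month and 0.20 at 3 months. Ccnh, which with Cdk7 forms the kinase that activates other CDKs, read 0.09, 0.35 and 0.45 in the same order. Under median centring Ccnh read 0.71 and 0.72 between strains at 1 and 3 months, past 1.5-fold. Ccng1, a target of p53, read -0.46, -0.04 and -0.26, with spots of -0.48 and -0.43 on the SHR age array. Both of its spots at 3 months lay in the bright patch, and it reached -0.75 there with no background correction and -0.81 with age in the authors' log2 values. Ccnb1, the mitotic cyclin, read -0.15, -0.05 and 0.06. The 7 cyclins had a median of -0.06 on the SHR age array, -0.04 at 1 month and 0.05 at 3 months. Cdk1, the kinase that Ccnb1 switches on for mitosis, read -0.17, -0.01 and 0.05, from raw intensities of 356 in SHR of 3 months against 768 in SHR of 1 month. Cdk7 was dim (67 and 86 on the SHR age array) and read 0.03 there.

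None of the 5 CDK inhibitors reached 1.5-fold on any array in the main processing. Cdkn1a (p21), which stops the cycle after DNA damage, read 5696 in SHR of 3 months against 9311 in SHR of 1 month. Its log2 ratios were -0.21 with age, -0.37 between strains at 1 month and -0.20 at 3 months. Cdkn1b (p27), which holds resting cells out of the cycle, read 0.24, -0.02 and 0.29. Its spots at 1 month were -0.17 and 0.13, on both sides of 0. Cdkn2a, the gene of p16 and ARF, read -0.24, -0.29 and -0.23, and Cdkn2b (p15) read 0.01, -0.05 and 0.20. Under median centring Cdkn2b read 1.04 with age and 0.94 and 0.97 between strains at 1 and 3 months. The 5 inhibitors lay below 0 at 1 month, between -0.37 and -0.02, and on both sides of 0 on the other arrays.

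Of the mitotic kinases measured, Aurka was the one past 1.5-fold on the SHR age array. Aurka, which builds the spindle poles, read 2279 in SHR of 3 months against 5695 in SHR of 1 month. It read 6218 in SHR against 7847 in WKY at 1 month, and 6130 in SHR against 9261 in WKY at 3 months. The log2 ratio was -0.68 on the SHR age array, past 1.5-fold in 9 of 12 other settings, and 0.07 and -0.13 between strains at 1 and 3 months. The second reading of age, from the SHR channels of the strain arrays, gave 0.00. Both Aurka spots at 3 months lay in the bright patch, so its -0.13 and 0.00 rest on them. Plk1, which triggers entry into mitosis, read -0.35 with age, -0.01 at 1 month and -0.05 at 3 months. Plk2, a Polo kinase of G1 and of stress responses, read -0.41, 0.10 and 0.00. Of these 3 kinases Aurka alone passed 1.5-fold, and the strain ratios of all 3 lay between -0.13 and 0.10. Aurkb, the kinase of the chromosomal passenger complex, read 43 to 52 in every channel and was not well above background, so no ratio is given for it. The same holds for Cdc42bpa, another kinase that binds Cdc42. Birc5 (survivin), a partner of Aurkb in that complex, read -0.27, -0.14 and -0.13, with raw intensities of 17289 in SHR of 3 months against 22182 in SHR of 1 month.

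The enzymes that copy DNA were under 1.5-fold on each of the 3 arrays, though not in every setting or reading. Pcna, the sliding clamp of the polymerases, read 354 in SHR of 3 months against 615 in SHR of 1 month, 579 in SHR against 1085 in WKY at 1 month, and 534 in SHR against 971 in WKY at 3 months. Its log2 ratios were 0.16 with age and -0.11 and -0.02 between strains at 1 and 3 months. Top2a, the topoisomerase that untangles chromosomes in dividing cells, read 4683 in SHR of 3 months against 6583 in SHR of 1 month. Its log2 ratios were 0.05, 0.06 and 0.14, and its spots on the SHR age array, 0.21 and -0.10, lay on both sides of 0. The SHR channels of the strain arrays gave 0.79 for Top2a at 3 months minus 1 month. Pola2, a subunit of the polymerase that starts each new strand, read 0.17, 0.02 and 0.25. Pold1, the catalytic subunit of polymerase delta, read 0.08, -0.23 and -0.12. These 4 had a median of 0.12 on the SHR age array, with all 4 slightly above 0 (0.05 to 0.17). Under median centring Pcna was -0.14 there and Pold1 0.88, and Pold1 was 0.47 and 0.51 between strains at 1 and 3 months. Mcm6, part of the replicative helicase, read -0.24 with age, 0.16 between strains at 1 month and -0.15 at 3 months. E2f5, an E2F factor of resting cells, read -0.02 with age, from spots of -0.15 and 0.12, and 0.03 and -0.38 between strains. For E2f5 the SHR channels of the strain arrays gave -0.62 at 3 months minus 1 month.

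The other Cdc genes were under 1.5-fold. Cdc5l, a splicing protein, was the highest of them at 1 month (0.37, and -0.01 at 3 months), and Cdc42, a small GTPase of cell shape, the highest at 3 months (0.30, and -0.08 at 1 month). Both spots of Cdc5l at 3 months lay in the bright patch. Cdc25b, a phosphatase that activates CDKs, read 0.22 with age and 0.04 and 0.11 between strains at 1 and 3 months. Cdc25a, its relative in the entry to S phase, read 0.10, -0.16 and -0.01. Septin7, a filament protein of dividing cells that the files call Cdc10, read 0.19, 0.25 and 0.00. The 8 Cdc genes had a median of 0.02 on the SHR age array, 0.01 at 1 month and 0.00 at 3 months.

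Mre11 was the one gene of the 47 at least 1.5-fold higher on a strain array, and by the headers' direction also the one on the SHR age array. It is the nuclease of the MRN complex, which with Rad50 and Nbn finds and trims DNA double-strand breaks. It was bright throughout. Its raw intensity was 27402 in SHR of 3 months against 18322 in SHR of 1 month, 31976 in SHR against 20114 in WKY at 1 month, and 26492 in SHR against 15766 in WKY at 3 months. The log2 ratios were 0.59 with age, 0.61 between strains at 1 month and 0.81 at 3 months, so the second channel was the higher on each array, as for 0.106% of all probes (6) at this fold. With the sign turned the value with age was -0.59, and the SHR channels of the strain arrays gave -0.27 for 3 months minus 1 month. The values at 1 month and with age lay just past the 1.5-fold line, and 9, 12 and 11 of 12 other settings passed it at 1 month, at 3 months and with age. Its partner Nbn read 0.52, 0.31 and 0.58 and its partner Rad50 read -0.17, -0.07 and -0.23, so the 3 genes of the complex did not run together. As for Cdc20, the pair of intensities kept its order whichever rats' RNA the channels held, and channel and RNA cannot be told apart.

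Smc1a, a ring subunit of cohesin, which holds sister chromatids together, had no usable value at 1 month. Its spots there read -0.19 and -2.78. The ratio was -0.19 at 3 months and -0.13 with age, where both spots were close. Smc3, the other ring subunit, read 0.41 with age and 0.04 and 0.39 between strains.

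**Figure D4:**
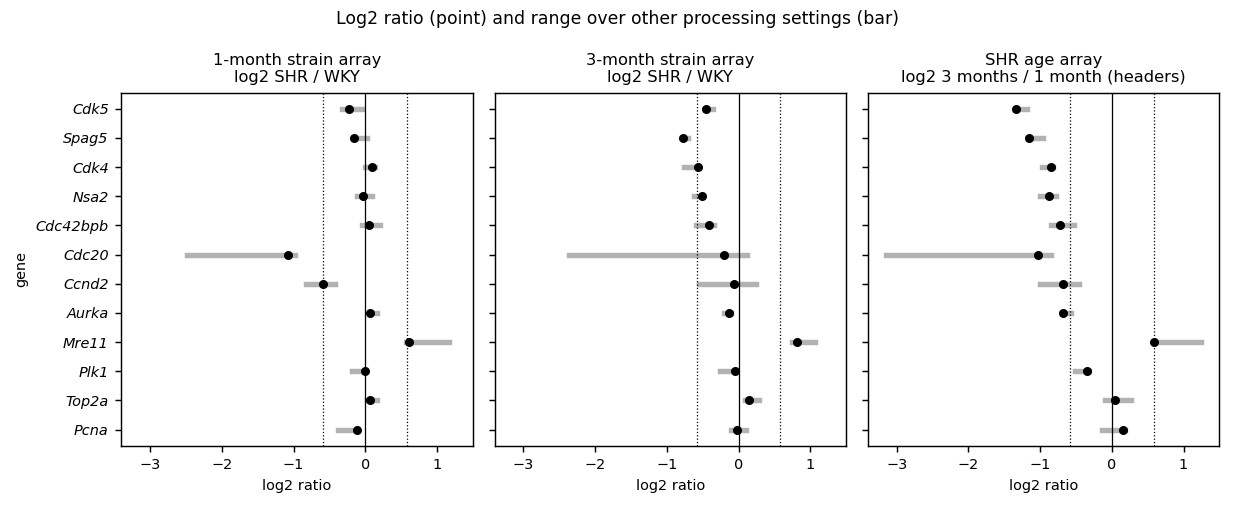
Log2 ratio of 12 genes (points) and its range over up to 12 other processing settings (grey bars) on the 3 arrays, without the turned sign of the SHR age array; dotted lines mark 1.5-fold. The bars of Cdk5, Spag5, Cdk4 and Nsa2 on the SHR age array lie wholly beyond the lower line (Cdk5 from -1.35 to -1.18), while those of the dim Cdc20 and Ccnd2 are wide.

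Genes of the same pathways outside the rule were taken as whole lists. Of 33 further replication genes 9 were measured, and 0 were at least 1.5-fold apart on any array, with medians of 0.01 on the SHR age array, 0.13 at 1 month and 0.05 at 3 months. With age the primase subunit Prim1 read -0.45, Dut, which removes dUTP, -0.35, and the flap nuclease Fen1 0.33. Of 35 further mitosis genes 4 were measured and 0 were at least 1.5-fold apart, with Pttg1 (securin) at 0.33 and Ran at -0.09 with age. Of 34 checkpoint and repair genes 20 were measured, and 1 was at least 1.5-fold lower with age: Apex1, the endonuclease of base excision repair, at -0.91, with -0.05 and -0.48 between strains at 1 and 3 months. Ogg1, a glycosylase for oxidised guanine, read -0.50 and the checkpoint kinase Chek2 -0.48 with age.

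Genes tied to liver growth and maturation gave values in both directions with age. Of 19 listed, 16 were measured, with a median of 0.08 on the SHR age array. The largest was an alpha-2u globulin (LOC259245), one of the proteins that male rat liver is known to secrete from puberty on. It read 2151 in SHR of 3 months against 1486 in SHR of 1 month, a log2 ratio of 1.27, and was -1.23 and -0.12 between strains at 1 and 3 months. Igf1, the growth factor that liver makes under growth hormone, read -0.54 with age, and the growth genes Myc and Jun read -0.38 and 0.37. Afp and Igf2, both known from fetal and young liver, read 0.24 and 0.28, and Cyp2c11, a cytochrome of adult male liver, read 0.12. With the sign turned these values turn too.

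Markers of the cell types of liver were set beside the 7 lower members on the SHR age array. The 14 hepatocyte markers had a median of -0.15 and 2 were at least 1.5-fold lower, Alb (-1.10) and Tf (-0.99). Their summed raw intensity was 87716 at 3 months and 106717 at 1 month. These and the sums below are not normalized. Over all probes the median raw intensity on this array was also lower at 3 months, 1448 against 2405. Alb also read -1.01 between strains at 3 months and -0.15 at 1 month, an order of values like that of Spag5. The 10 leukocyte markers had a median of -0.17 with 0 past 1.5-fold, and summed to 28745 at 3 months and 43237 at 1 month. The 3 Kupffer, 2 cholangiocyte and 5 stellate and endothelial markers measured had medians of -0.29, -0.20 and -0.31, and Des (-0.60) was past 1.5-fold. Their sums were 23212 and 35227, 13359 and 21365, and 30000 and 43002 at 3 months and 1 month. No marker measured had a raw intensity of 0. The part of these cell types in the lower members was not tested.

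A second reading of age in SHR, free of the unsettled age array, came from the SHR channel of both strain arrays, at 3 months minus 1 month. It crosses slides, so that slide differences do not cancel, the SD between spots was larger, at 0.157, and the SD over all probes was 0.344. By this reading Nsa2 was -0.68, Cdc42bpb -0.67 and Cdk4 -0.46, against -0.87, -0.72 and -0.85 on the SHR age array. The Cdk4 value rests on 3-month spots in the bright patch. Cdk5 was -0.14 and Spag5 0.06, against -1.33 and -1.16. The WKY channels gave 0.07 for Cdk5 and 0.68 for Spag5. Cdc20 and Ccnd2 were 0.63 and 0.47, against -1.03 and -0.68. Their raw SHR intensities at 1 and 3 months were 75 and 72 for Cdc20 and 88 and 103 for Ccnd2. After processing, mean log2 intensity on the 1-month and 3-month strain arrays was 7.2 and 9.1 for Cdc20 and 7.1 and 9.1 for Ccnd2. Dim probes were lifted on the 3-month strain array: 4.44% of all probes were under 9 there, beside 19% at 1 month. Cdc20, among the 3 higher by this reading, was below the empty-spot level at 3 months. At least 1.5-fold lower by both readings were 2 of the 35 (5.71%), Nsa2 and Cdc42bpb, neither a cell cycle gene by function, beside 0.78% of all probes. By the second reading alone 3 of the 35 were at least 1.5-fold lower and 3 higher (8.57% each), beside 3.91% and 4.53% of all probes, against 7 and 0 on the SHR age array. The third lower member, beside Nsa2 and Cdc42bpb, was E2f5 at -0.62, against -0.02 on the SHR age array. Over the 35 the median was -0.019 in SHR and 0.013 for the same reading in WKY. Top2a and Cdk1 had 0.79 and 0.74 in SHR beside 0.70 and 0.68 in WKY.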

How the data were processed

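Per the labels' protocols, 10 µg of total RNA were copied into cDNA with Alexa555 or Alexa647. The deposited files give, per the file headers, raw, background and net intensity of each channel, and the authors' ratio of net intensity. A separate deposited table holds the authors' log2 values, which lay near log2 of net second over first channel for most spots (median absolute differences 0.00158, 0.00329 and 0.00351), though the correlation over spots was 0.752, 0.432 and 0.826. Their scale, centring and direction are not stated, and their medians were 0.0028, 0.0225 and 0.0202. They served as an alternative. The quantification software is not stated in the labels or headers.

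Raw intensities were background-corrected (normexp, offset 50) and normalized within each array by loess (span 0.3) with limma 3.58.1 in R 4.3.3. The median log2 ratio before this was -0.508, -0.367 and -0.656. A spot was kept where either channel was 2 SD over its local background, and spots of a probe were averaged. Single-channel values followed Aquantile scaling. Python 3.11.15, numpy 2.4.6, pandas 2.3.3 and matplotlib 3.10.9 did the rest. Of 5690 probes, 2728 were named by accession, 1050 by symbol and 521 by synonym in a RefSeq table (GRCr8), 156 kept the file's symbol and 1235 had none.

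With 1 array per comparison no test was run, and precision is limited by that number. Genes at least 1.5-fold apart were counted (log2 0.585). On simulated data, 50 probes lowered 2-fold on the SHR age array came back with a median of -0.868 and 98% past 1.5-fold, and 50 lowered 1.5-fold with -0.533 and 18%, so true 1.5-fold differences are undercounted. There, 50 raised 1.5-fold came back with 0.49 and 0%, so higher calls were missed more than lower ones. On the 3-month strain array 1.5-fold lowered probes gave -0.455 and 6.12%, and raised ones 0.477 and 0%. The members and lists were chosen with earlier results of these data known. Values were to be given for the marker genes, members past 1.5-fold, the 2 highest and 2 lowest of each role on the SHR age array, and up to 4 genes per list. One gene that the rule takes is not reported here. Cdk1, Ccnb1, Cdc25a, Rad50, Afp, Igf2 and Cyp2c11 fall outside this rule and were chosen with their values in view. The direction planned for the SHR age array rested on the dye labels, and the headers were used once seen.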

Additional observations from a re-analysis of the deposited data

Results flagged for a closer look

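The strain ratio of Mcm6, a helicase subunit of DNA replication, was above 0 at 1 month and below 0 at 3 months on every spot. It read 0.16 at 1 month (spots 0.15 and 0.17) and -0.15 at 3 months (both spots -0.15), a difference of -0.31. Both ratios were beyond 2 SD between spots and under 1.5-fold. With 1 array per age the difference was not tested.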

How the results depend on the processing

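The count of 7 lower members on the SHR age array stayed within 1.5 times under every alternative run except the turned sign. Turning the sign gave 0 lower and 7 higher, a median of 0.052, and 1.33 for Cdk5, 1.16 for Spag5, 1.03 for Cdc20, 0.87 for Nsa2, 0.85 for Cdk4, 0.72 for Cdc42bpb, 0.68 for Ccnd2 and for Aurka, and -0.59 for Mre11. On the 3-month strain array the count of 1 lower became 2 with normexp offset 0, without the bright patch and with loess by subgrid, 3 with the authors' log2 values and with the authors' ratio column, 4 with no background correction and with median centring, and 6 with plain subtraction. Its median was -0.059 with median centring, -0.055 with loess by subgrid, -0.073 with the authors' log2 values and -0.056 with their ratio column. At 1 month the 2 lower became 1 with loess by subgrid, with the first spot only and with the authors' ratio column, and 0 without dim probes, an alternative chosen after seeing the data, as was adding the 12 probes. The count of 0 higher became 3, 3 and 4 on the 1-month strain, 3-month strain and SHR age arrays with median centring, and 1 on each when the 12 probes were added. It became 1 at 1 month and with age with the authors' log2 values, and 1 at 3 months with their ratio column. The SHR age median was -0.158 with median centring and -0.106 with the first spot only. Single channels centred on the median gave 0.274 in SHR and 0.248 in WKY. The causes were not tested. No paired analysis was possible because each comparison has 1 array. Dim members, such as Cdc20 and Ccnd2, are limited by their signal over background. On the SHR age array 24.7% of all probes had a mean log2 intensity under 9, and Cdc20 and Ccnd2 were at 7.0 and 7.1. The share was 19% on the 1-month and 4.44% on the 3-month strain array.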

Other observations

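Several probes without a gene symbol are described in the files as resembling genes of the cell cycle, and were left out of the counts above. A probe described as similar to mouse cyclin I read -0.76 with age in SHR, -0.43 between strains at 1 month and -0.54 at 3 months, and was dim on the SHR age array (mean log2 intensity 8.7). A probe similar to the 37 kDa subunit of replication factor C, which loads the clamp Pcna, read 0.87, 0.34 and 0.24 and was dim there too (7.3). A probe similar to the mouse cyclin-dependent kinase 3 interactor read 0.51, 0.28 and 0.23. A probe for the 3' end of rat DNA polymerase alpha mRNA read -0.28, 0.03 and -0.12, and one similar to mouse MCM4 read 0.00, -0.22 and -0.08. A probe of a polo-like kinase isoform read -0.16, 0.11 and 0.26, and one similar to transcription factor DP-1, the partner of E2F, read 0.17, 0.06 and -0.27. Those similar to cyclin C, to E2F5 and to human CDC2-like 5 lay between -0.07 and 0.25 on the 3 arrays. The replication factor C and cyclin I probes were the 2 of these past 1.5-fold on the SHR age array.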
